A study of Mus musculus with 39 samples.

Results

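Nr4a1, Nr4a2 and Nr4a3 make up the Nr4a family of orphan nuclear receptors, and all 3 were present among the 16358 genes of the deposited filtered count table. They were taken from the table by gene symbol. NR4A proteins are transcription factors of the nuclear receptor superfamily whose ligand pocket is filled by bulky side chains, so that their activity is set mainly by how much of each protein a cell makes. Their genes belong to the immediate early class: transcription starts within minutes of a stimulus, such as cyclic AMP, calcium or growth factors, acting through factors that include CREB, MEF2 and SRF, and it usually fades within hours. Nr4a1 (Nur77) is known from T cell receptor signalling and hepatic glucose production, Nr4a2 (Nurr1) from the development of dopamine neurons, and Nr4a3 (Nor-1) from smooth muscle and haematopoietic cells.

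The tissue was duodenum of male wild-type C57BL/6 mice aged 8 weeks, each with a cannula in the right lateral ventricle of the brain, and 39 bulk RNA-seq libraries were counted. Mice in the Leptin-water (13 libraries) and Leptin-antibiotic (6) groups received 3 µg of leptin through the cannula, and mice in the Saline-water (14) and Saline-antibiotic (6) groups received saline. Antibiotic groups drank ampicillin at 1 g/L with neomycin at 0.5 g/L for 48 h before the injection, and water groups drank plain water. Shared by all 4 groups were the surgery 3 days before, 2 h without food before the injection and collection of the duodenum 2 h after it. Leptin is secreted by fat cells and lowers food intake through receptors in the hypothalamus. The comparisons ask whether leptin given into the brain changes Nr4a transcripts in the duodenum within 2 h, and whether the antibiotics change them or alter that difference.

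Library names in the labels begin in 2 ways, M or MT, and the libraries are divided by these into sets M and MT. Of the Leptin-water libraries 7 were in set M and 6 in set MT, of the Saline-water libraries 8 and 6, and the antibiotic groups were in set MT alone. Library totals were 30207536 to 67870777 counts (median 48282125). Duodenal enterocyte markers were high in every library: Apoa4, an apolipoprotein of chylomicrons, lay between 2539 and 8110 CPM (counts scaled to the TMM-adjusted library total), and Pdx1, a transcription factor of the duodenum and pancreas, between 100.5 and 200.8 CPM. Exocrine pancreas genes were high in 6 libraries, with a mean of 4.27 to 5.12 log2 CPM over 25 measured genes of a list of 29, against −2.15 to 2.56 in the other 33. These 6 were Leptin-water 6 and 10, Leptin-antibiotic 3, and Saline-antibiotic 1, 2 and 5, so that 3 of the 6 Saline-antibiotic libraries and none of the 14 Saline-water libraries were among them. In all libraries together the pancreatic carboxypeptidase gene Cpa1 ranged up to 121.7 CPM and was at 0 in 11. Results that rest on these libraries are given with and without them.

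Nr4a1 (ENSMUSG00000023034.7) lies on chromosome 15 from 101254269 to 101274795, on the plus strand of GRCm38, the assembly also called mm10. Nr4a2 (ENSMUSG00000026826.13) lies on chromosome 2 from 57106830 to 57124003, on the minus strand. Nr4a3 (ENSMUSG00000028341.9) lies on chromosome 4 from 48045153 to 48086447, on the plus strand. These positions come from GENCODE vM21, which annotates no other gene over any of the 3, on either strand. The union of annotated exons was 3509 bases for Nr4a1, 4059 for Nr4a2 and 5987 for Nr4a3.

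The upstream regions of the 3 genes are shown because CREB, the factor that cyclic AMP signalling activates, binds the core TGACG. Whether this core has a part in the members' levels or in their variation between libraries was not tested. The sequences are from RefSeq (GRCm38.p6), written 5′ to 3′ on the strand of the gene, and capitals mark TGACG or its reverse complement CGTCA. They end at the base before the RefSeq gene start, except that the Nr4a3 stretch ends where the first exon annotated by GENCODE begins.
Nr4a1 (chr15:101266596-101266845, plus strand): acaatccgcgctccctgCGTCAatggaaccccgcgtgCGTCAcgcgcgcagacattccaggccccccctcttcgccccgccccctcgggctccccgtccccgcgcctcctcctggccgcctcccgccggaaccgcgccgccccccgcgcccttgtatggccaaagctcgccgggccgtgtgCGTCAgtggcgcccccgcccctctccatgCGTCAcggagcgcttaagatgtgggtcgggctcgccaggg
Nr4a2 (chr2:57124004-57124253, minus strand): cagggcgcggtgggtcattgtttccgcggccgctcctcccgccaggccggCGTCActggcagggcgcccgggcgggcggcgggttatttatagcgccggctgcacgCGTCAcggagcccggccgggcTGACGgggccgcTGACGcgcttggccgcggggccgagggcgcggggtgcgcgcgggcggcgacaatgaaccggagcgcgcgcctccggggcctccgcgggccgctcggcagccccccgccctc
Nr4a3 (chr4:48045055-48045152, plus strand): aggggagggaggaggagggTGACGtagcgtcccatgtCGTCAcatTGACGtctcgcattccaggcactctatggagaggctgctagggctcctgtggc

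Within the 250 bases before the RefSeq start, each member held 4 copies of TGACG on either strand. For Nr4a3, 3 of the 4 copies are in the stretch shown and the other lies in the exon that GENCODE annotates. The Nr4a1 window falls in an intron of a longer annotated Nr4a1 transcript that starts further upstream. Of 32851 mouse promoters of the same length, 17.8% held at least 1 copy and 45 (0.137%) held 4 or more, the members included. The core holds a CG pair, and G and C made up 74.4% of the Nr4a1 window, 80.0% for Nr4a2 and 63.6% for Nr4a3. The promoters were not matched for this content. The 12683 genes of the count table with a promoter were each scored by the promoter with the most copies. Of these genes 27.9% held at least 1 copy and 0.323% held 4 or more. These shares count genes and those before count promoters, so the 2 kinds are not compared. Of listed cyclic AMP and CREB target genes 12 of 13 held at least 1 copy and 0 held 4 or more. For listed immediate early genes these counts were 12 of 20 and 0. The full palindrome TGACGTCA, which would count as 2 overlapping copies of the core, was in 1.55% of promoters and in none of the 3 members. The monomer site of NR4A proteins themselves, AAAGGTCA, was in 1.34% of promoters and in none of the 3. The EGR site GCGGGGGCG was in 2.57%, and once in Nr4a1, where it overlapped no TGACG. These are matches of letters in a window, searched on both strands, and show no binding.

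Read counts per library ran from 85 to 1665 for Nr4a1, from 224 to 918 for Nr4a2 and from 71 to 488 for Nr4a3. On a per-length scale (CPM per kilobase of exon), over all 39 libraries, Nr4a2 averaged 2.37 ± 0.61, Nr4a1 2.18 ± 1.89 and Nr4a3 0.721 ± 0.269 (SD). The mean levels of Nr4a2 and Nr4a1 thus differed by less than their spread, and Nr4a3 was below both of the others in each of the 39 libraries. The order of the upper pair differed between the injections: Nr4a1 exceeded Nr4a2 per kilobase in 0 of 19 leptin libraries and in 9 of 20 saline libraries. In Leptin-water libraries Nr4a1 had 1.19 ± 0.30 and Nr4a2 2.19 ± 0.45 CPM per kilobase (n = 13). Saline-water libraries had 2.91 ± 2.05 for Nr4a1 and 2.56 ± 0.77 for Nr4a2 (n = 14).

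Library-to-library variation also differed among the members. The SD of log2 CPM around the mean of each set and group was 0.43 for Nr4a1 in the 19 leptin libraries, against 0.81 in the 20 saline libraries. For Nr4a2 it was 0.24 with leptin and 0.32 with saline, and for Nr4a3 0.49 with leptin and 0.51 with saline. Of the 1804 genes within 0.5 log2 units of the mean level of Nr4a1, 99.0% had a lower SD than Nr4a1 in saline libraries and 94.96% in leptin libraries. For Nr4a3, among 1588 such genes, these shares were 95.8% in saline and 95.2% in leptin libraries, and for Nr4a2, among 2033, 90.6% and 76.4%. Without the 6 libraries high in pancreas genes the SD of Nr4a1 was 0.41 with leptin and 0.68 with saline. The highest 14 libraries for Nr4a1 were all saline libraries, from 6.60 to 31.8 CPM, and Saline-antibiotic 5 and Saline-water 3 stood above 20 CPM.

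**Figure D1:**
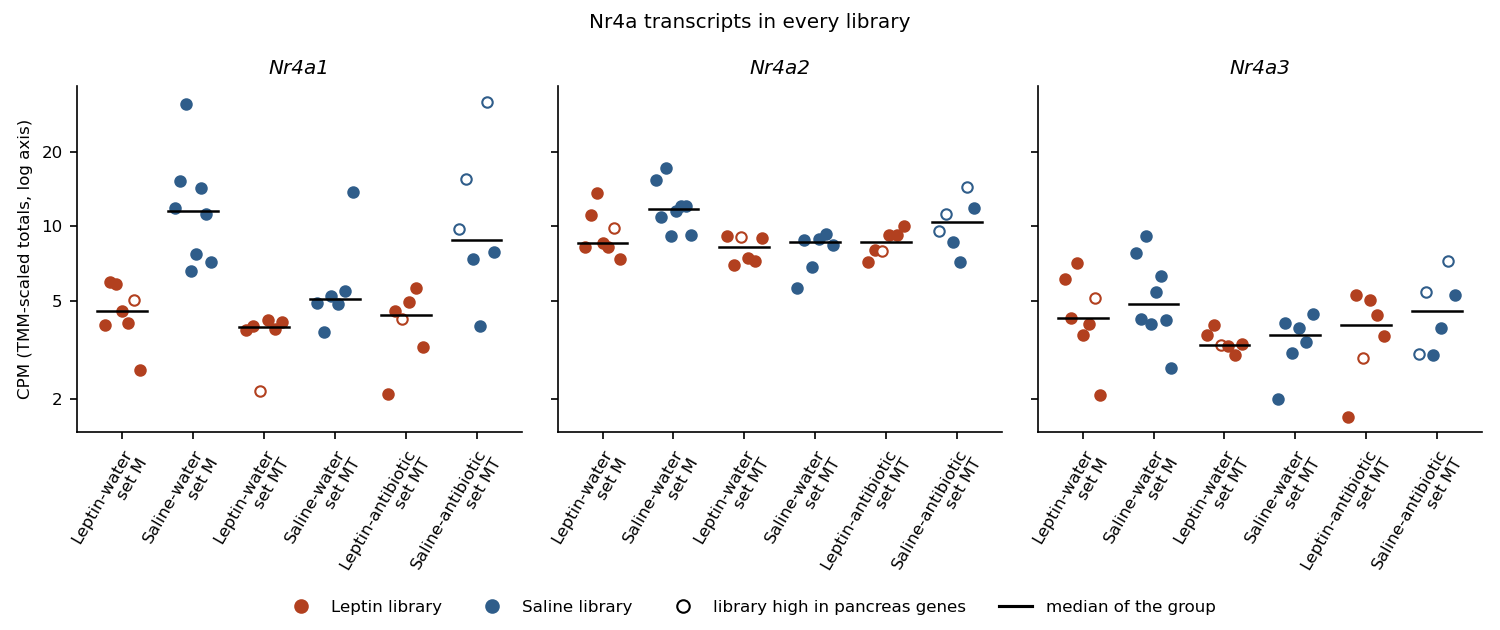
CPM of Nr4a1, Nr4a2 and Nr4a3 (log axis) in each of the 39 libraries, by group and set, with leptin groups left of their saline groups; points are libraries, lines are group medians, and open circles are the 6 libraries high in pancreas genes. In set M the 7 Leptin-water values of Nr4a1 (2.63 to 5.95 CPM) all lie below the 8 Saline-water values (6.60 to 31.1 CPM), while the groups overlap for Nr4a2 and Nr4a3.

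Nr4a1 was lower in Leptin-water than in Saline-water libraries, at a fold of 0.435, while Nr4a2 and Nr4a3 did not pass the threshold (a Benjamini-Hochberg adjusted p of 0.05). In set M, Nr4a1 had 2.63, 4.56 and 5.95 CPM (lowest, median and highest of 7) in Leptin-water libraries, against 6.60, 11.5 and 31.1 CPM (of 8) in Saline-water libraries. All 7 leptin values were below all 8 saline values there. The share of all genes that separate in such a way was not counted, here or in the comparisons below. In set MT Nr4a1 had 2.15, 3.90 and 4.17 CPM (of 6) in Leptin-water libraries, against 3.76, 5.07 and 13.7 CPM (of 6) in Saline-water libraries. The groups overlapped in set MT, where 5 of the 6 saline libraries were above every leptin library and Saline-water 10 was the exception. Over both sets the means were 4.17 ± 1.06 CPM with leptin (n = 13) and 10.2 ± 7.18 CPM with saline (n = 14).

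With set as a term, the log2 fold change of Nr4a1 on water was −1.20 (SE 0.23, edgeR quasi-likelihood test, adjusted p = 0.0162). It was one of 51 genes called among 16329 (0.312%), of which 6 were lower with leptin (0.0367%). Within set M the log2 fold change was −1.51 (SE 0.29, edgeR adjusted p = 0.0735, 0.0306% of genes called), and within set MT it was −0.78 (SE 0.38, edgeR adjusted p = 0.681, 0% of genes called, 1194 genes at an unadjusted p under 0.05). Neither set passed alone, and the difference between the sets in the leptin effect was 0.74 (SE 0.43, edgeR adjusted p = 0.597; 0.0428% of genes called). The call was kept when each of the 27 libraries was left out in turn (log2 −1.26 to −1.02) and without the 2 Leptin-water libraries high in pancreas genes (log2 −1.16, edgeR adjusted p = 0.0393). Smooth muscle genes had opposite signs in the sets, with 13 of 13 measured members positive in set M (median log2 0.38) and 13 of 13 negative in set MT (median −0.33). Their summed level was 1403.9 to 3085.3 CPM in Leptin-water and 1524.7 to 2369.9 CPM in Saline-water libraries of set M, and 1058.5 to 2145.4 CPM in Leptin-water and 1839 to 2638.3 CPM in Saline-water libraries of set MT. The stomach and Brunner gland list was negative for 11 of 11 measured members in set M (median −0.44) and for 2 of 11 in set MT (median 0.58). Macrophage genes were negative for 12 of 13 members over both sets (12 of 13 in set M, 8 of 13 in set MT), fibroblast genes for 11 of 13 (11 of 13 in set M, 10 of 13 in set MT) and endothelial genes for 11 of 12 (10 of 12 in set M, 7 of 12 in set MT). In set M the macrophage list summed to 180.1 to 281.4 CPM in Leptin-water and 220.9 to 272.0 CPM in Saline-water libraries, and in set MT to 253.6 to 336.9 CPM in Leptin-water and 249.8 to 362.3 CPM in Saline-water libraries. The median log2 fold changes over both sets were −0.13 for macrophage and −0.06 for fibroblast and for endothelial genes. Exocrine pancreas genes were positive for 12 of the 13 members tested over both sets (median 1.31). None of these genes was called, and their part in the Nr4a1 result was not tested. In tissue of mixed cell types, fewer cells of a type and less RNA per cell cannot be told apart. Nothing in the labels says that each library is a separate animal, so p-values measure the spread between these samples.

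Nr4a2 in set M had 7.33, 8.56 and 13.6 CPM in Leptin-water libraries and 9.12, 11.8 and 17.2 CPM in Saline-water libraries. These ranges overlapped, but 4 of the 7 leptin values were lower than any saline value. In set MT it had 7.00, 8.20 and 9.14 CPM in Leptin-water libraries and 5.64, 8.61 and 9.31 CPM in Saline-water libraries, and there the leptin range lay inside the saline range. The log2 fold change on water was −0.18 (SE 0.11, edgeR adjusted p = 0.551), being −0.35 in set M and 0.04 in set MT.

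Nr4a3 overlapped between the groups in both sets. Its values in set M were 2.07, 4.24 and 7.11 CPM in Leptin-water libraries and 2.67, 4.83 and 9.13 CPM in Saline-water libraries. In set MT they were 3.02, 3.32 and 3.99 CPM in Leptin-water libraries and 2.01, 3.64 and 4.42 CPM in Saline-water libraries. The log2 fold change was −0.14 (SE 0.16, edgeR adjusted p = 0.803), with a 95% interval of −0.47 to 0.18. A p that misses the threshold does not show that the levels were alike: the interval of Nr4a2, −0.40 to 0.03, still holds a modest fall.

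Leptin on antibiotic gave the same direction for Nr4a1, with a call that depended on the libraries used. Nr4a1 had 2.10, 4.39 and 5.63 CPM in Leptin-antibiotic libraries, against 3.96, 8.77 and 31.8 CPM in Saline-antibiotic libraries. All 6 leptin values lay below the saline median, 5 of the 6 saline values were above every leptin value, and Saline-antibiotic 4 was within the leptin range. The log2 fold change was −1.62 (SE 0.38, edgeR adjusted p = 0.0481), one of 84 genes called among 16340 (0.514%), of which 9 were lower (0.0551%). Nr4a2 had 7.14, 8.61 and 10.0 CPM in Leptin-antibiotic libraries, against 7.15, 10.4 and 14.3 CPM in Saline-antibiotic libraries (log2 −0.28, SE 0.14, edgeR adjusted p = 0.318). For Nr4a3 the values were 1.70, 4.00 and 5.27 CPM in Leptin-antibiotic libraries and 3.02, 4.56 and 7.25 CPM in Saline-antibiotic libraries (log2 −0.28, SE 0.23, edgeR adjusted p = 0.55). The ranges of both genes overlapped between the groups.

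The 3 highest Saline-antibiotic values of Nr4a1 were in the 3 libraries of that group that were high in pancreas genes. Saline-antibiotic 1, 2 and 5 had 9.71, 15.5 and 31.8 CPM, and the other 3 had 3.96, 7.39 and 7.84 CPM. The ribosomal RNA precursor Rn45s took 6.08% to 11.6% of counts in Leptin-antibiotic libraries, 13.3%, 11.0% and 12.8% in Saline-antibiotic 1, 2 and 5, and 6.13% to 6.56% in the other 3 Saline-antibiotic libraries. It took 13.0% in Saline-water 3, which had 31.1 CPM of Nr4a1, 4.50% in Saline-water 14, which had 13.7 CPM, and 11.6% in Leptin-antibiotic 1, which had the lowest Nr4a1 of all libraries. The part of ribosomal RNA in the Nr4a1 result was not tested. Leaving out the set MT libraries high in pancreas genes left 19 libraries in the fit, with 5 Leptin-antibiotic and 3 Saline-antibiotic libraries. Leptin-water 6, also high in pancreas genes, is in set M and was never in this fit. The log2 fold change of Nr4a1 was then −0.65 (SE 0.34, edgeR adjusted p = 0.646), and no gene in the table was called (1331 at an unadjusted p under 0.05). With the pancreas list as a covariate it was −1.23 (SE 0.35, edgeR adjusted p = 0.109). Leaving out Saline-antibiotic 5 alone gave −1.10 (edgeR adjusted p = 0.136), and the call held in 8 of the 24 fits that each left out 1 library. Of 8 other settings, 1 of which again leaves out Saline-antibiotic 5 alone, the call held under 1, RLE scaling. The adjusted p was 0.0492 to 0.646 over the 8, from limma voom in 1 of them and from edgeR in the others. DESeq2 gave no adjusted p for Nr4a1 and is not among the 8. Of the leptin libraries, Leptin-antibiotic 3, Leptin-water 6 and Leptin-water 10 were high in pancreas genes. Their Nr4a1 was 4.21, 5.05 and 2.15 CPM, against medians of 4.39, 4.56 and 3.90 CPM in their own group and set. Their ranks were 26, 20 and 38 of 39, where the highest 14 were all saline libraries.

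The exocrine pancreas list as a whole had 24 of 25 measured members negative in this comparison (median log2 −1.09, against −0.02 for all genes tested; none called). Its summed level was 75.3 to 1599 CPM in Leptin-antibiotic libraries and 91.9 to 1577 CPM in Saline-antibiotic libraries. The enterocyte list had 15 of 17 members positive (median 0.33, none called), with 37603 to 53960 summed CPM in Leptin-antibiotic libraries and 23856 to 40558 in Saline-antibiotic libraries. Smooth muscle genes were negative for 13 of 13 members (median −0.14, none called). Their summed level was 1628.8 to 2489.6 CPM in Leptin-antibiotic libraries and 1668.8 to 2773.8 CPM in Saline-antibiotic libraries. Of all genes tested 46.4% were positive. The part of these lists in the Nr4a1 result was not tested beyond these fits.

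**Figure D2:**
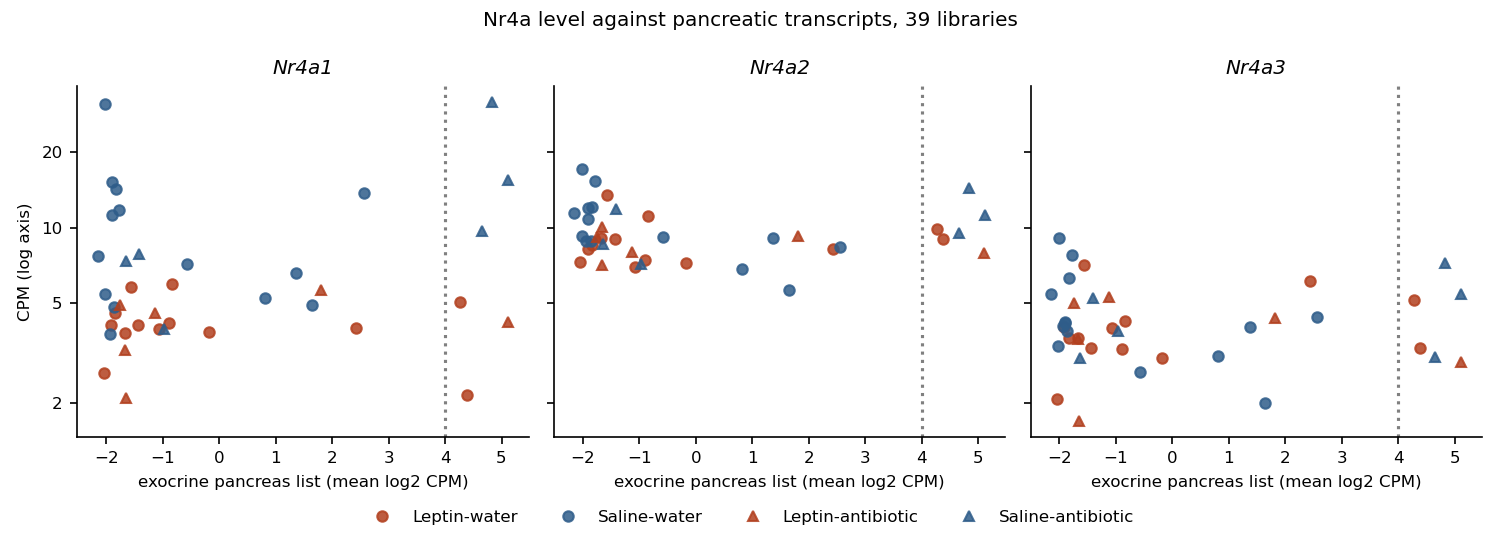
CPM of each member (log axis) against the mean log2 CPM of the exocrine pancreas list in 39 libraries; colour marks leptin or saline, circles are water and triangles are antibiotic groups, and the dotted line marks 4 log2 CPM. To the right of the line the 3 Saline-antibiotic libraries have 9.71 to 31.8 CPM of Nr4a1 and the 3 leptin libraries 2.15 to 5.05 CPM, while Saline-water 3, with 31.1 CPM, is among the lowest in pancreas genes.

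Among the 33 libraries below the line, no relation of Nr4a1 with the pancreas list was detectable. After the mean of each set and group was subtracted, Pearson's r was 0.124 (permutation p = 0.491, adjusted p = 0.526), or 0.325 without the 2 libraries farthest from the median of the list, and Spearman's rho 0.143 (permutation p = 0.426, adjusted p = 0.473). For Nr4a2 r was −0.361 (permutation p = 0.0387, adjusted p = 0.0484) and rho −0.345 (permutation p = 0.0494, adjusted p = 0.0592), with r at −0.267 after the 2 libraries farthest from the median of the list were left out, so this relation rests partly on them. Nr4a3 had an r of 0.00083 (permutation p = 0.996, adjusted p = 0.996) and a rho of −0.0344 (permutation p = 0.851, adjusted p = 0.88). Adjusted values are over the 30 tests of 15 relations described here and in the account of the members' shared variation.

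Antibiotic treatment itself did not bring any of the 3 members past the threshold. In saline mice, Nr4a1 had a median of 8.77 CPM in Saline-antibiotic libraries and 5.07 CPM in Saline-water libraries of set MT, with overlapping ranges. Its log2 fold change was 1.01 (SE 0.37, edgeR adjusted p = 0.263; 32 genes called, 0.196%). The same values were 0.40 for Nr4a2 (SE 0.14, edgeR adjusted p = 0.246) and 0.44 for Nr4a3 (SE 0.23, edgeR adjusted p = 0.455). This comparison shares its Saline-antibiotic libraries with the leptin comparison on antibiotic. The value of Nr4a1 was 0.49 without Saline-antibiotic 5. It was 0.03 (SE 0.33, edgeR adjusted p = 0.984) with the set MT libraries high in pancreas genes left out. All 25 measured pancreas genes were positive here, with a median log2 fold change of 3.06 and 1 called.

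In leptin mice, Nr4a1 had a median of 4.39 CPM in Leptin-antibiotic libraries and 3.90 CPM in Leptin-water libraries of set MT, again overlapping. The log2 fold changes were 0.17 for Nr4a1 (SE 0.38, edgeR adjusted p = 0.848), 0.09 for Nr4a2 (SE 0.14, edgeR adjusted p = 0.777) and 0.16 for Nr4a3 (SE 0.23, edgeR adjusted p = 0.755), in a comparison with 372 genes called (2.28%). Whether the leptin effect differed between antibiotic and water was tested directly in set MT. The difference was −0.84 for Nr4a1 (SE 0.53, 95% interval −1.87 to 0.19, edgeR adjusted p = 0.774), −0.31 for Nr4a2 (SE 0.20, edgeR adjusted p = 0.776) and −0.27 for Nr4a3 (SE 0.33, edgeR adjusted p = 0.864). The edgeR test called 0 of 16340 genes for this difference (0%; unadjusted p under 0.05 for 1043), and neither DESeq2 nor limma voom called any. Without the libraries high in pancreas genes the value of Nr4a1 was 0.02, with the sign turned.

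Over all 39 libraries, with set and antibiotic as terms, Nr4a1 was among the genes with the lowest p for leptin. It had 2.10, 4.11 and 5.95 CPM (lowest, median and highest of 19) in leptin libraries, against 3.76, 7.79 and 31.8 CPM (of 20) in saline libraries. All 19 leptin values were below the saline median, and 14 of the 20 saline values were above every leptin value. The log2 fold change was −1.33 (SE 0.21, 95% interval −1.75 to −0.92, edgeR adjusted p = 0.000303), the 11th lowest p of 16358 genes, of which 492 were called (3.01%) and 130 were lower (0.795%). Leaving out the 6 libraries rich in pancreas transcripts gave −1.04 (edgeR adjusted p = 0.00732), and Nr4a1 stayed called in each of the 39 fits without 1 library (log2 −1.38 to −1.17). In the same fit the enterocyte list was positive for 15 of 17 members (median log2 0.14, 1 called), and fibroblast genes were negative for 12 of 13 (median −0.10) and macrophage genes for 11 of 13 (median −0.06), none called, against 45.2% of all genes positive. Exocrine pancreas genes were positive for 22 of 25 (median log2 0.89, none called). The part of these lists in the result was not tested. These libraries are those of the separate comparisons on water and on antibiotic, so this fit is not independent of them.

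Nr4a2 over the 39 libraries had 7.00, 8.56 and 13.6 CPM with leptin and 5.64, 9.44 and 17.2 CPM with saline. The ranges overlapped, with 15 of 19 leptin libraries below the saline median. Its log2 fold change was −0.21 (SE 0.09, 95% interval −0.39 to −0.04, edgeR adjusted p = 0.197). Nr4a3 had 1.70, 3.64 and 7.11 CPM with leptin and 2.01, 4.12 and 9.13 CPM with saline, with 12 of 19 leptin libraries below the saline median (log2 −0.19, SE 0.15, 95% interval −0.47 to 0.10, edgeR adjusted p = 0.546). The interval of neither reaches that of Nr4a1, and the difference between members was not itself tested.

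**Figure D3:**
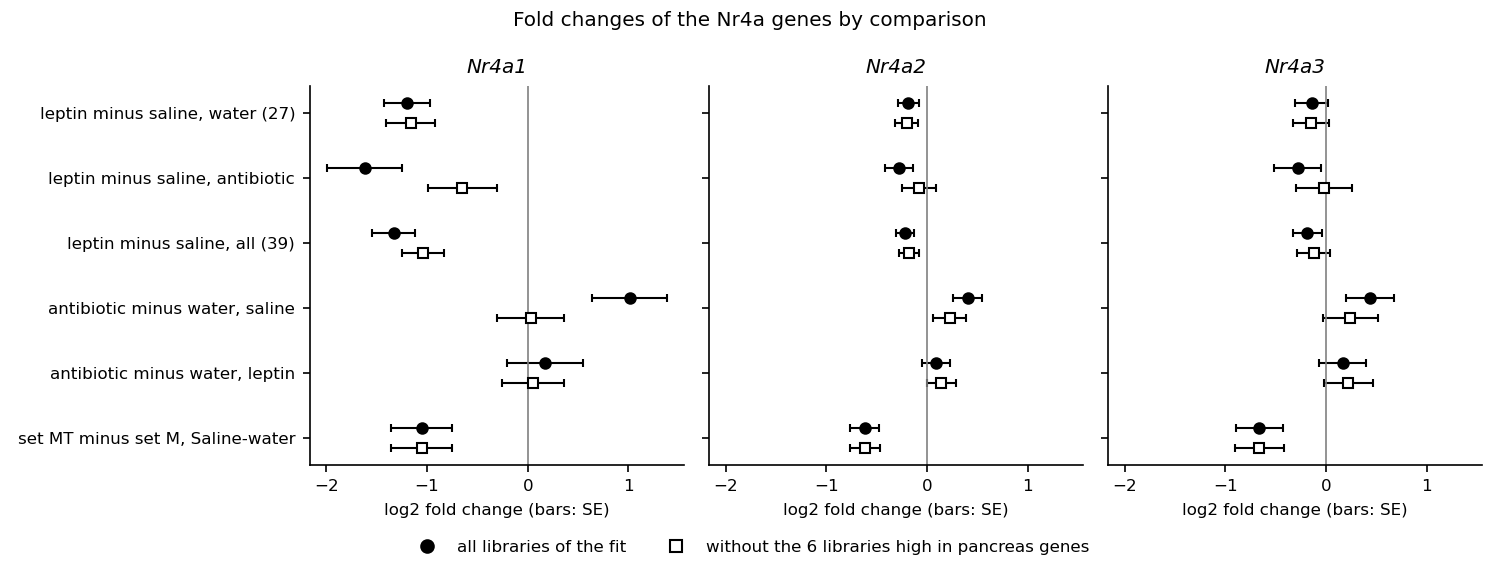
Log2 fold changes of the 3 members (horizontal axis, bars are standard errors) in 6 comparisons. Filled circles are with all libraries of the fit, and open squares without those of the 6 libraries high in pancreas genes that the fit holds. The leptin values of Nr4a1 are all negative. On antibiotic its value is −1.62 with all libraries and −0.65 without those high in pancreas genes. For antibiotic in saline mice it is 1.01 with all and 0.03 without them.

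Nr4a1 and Nr4a2 were lower in set MT than in set M among Saline-water libraries. In Saline-water libraries the medians of set MT and set M were 5.07 and 11.5 CPM for Nr4a1, 8.61 and 11.8 CPM for Nr4a2, and 3.64 and 4.83 CPM for Nr4a3. For Nr4a1, 5 of 6 set MT values were below every set M value, and the same count held for Nr4a2, while Nr4a3 had 1. The log2 difference, set MT minus set M, was −1.05 for Nr4a1 (SE 0.30, edgeR adjusted p = 0.0164) and −0.62 for Nr4a2 (SE 0.15, edgeR adjusted p = 0.00455). For Nr4a3 it was −0.66 (SE 0.24, edgeR adjusted p = 0.0513). The call of Nr4a1 was lost with limma voom (log2 −0.85, adjusted p = 0.0643), and Nr4a3 passed with DESeq2 (adjusted p = 0.026). The members called by edgeR, 2 of 3, stand against 17.3% of all 16356 genes called in this contrast. The stomach and Brunner gland list was lower in set MT for 11 of its 11 measured members (2 called), with 8242 to 21636 summed CPM in set MT and 15376 to 43726 in set M. The fibroblast list was higher for 11 of 13 (6 called), with 945 to 1266 summed CPM in set MT and 802 to 1162 in set M. Enteric neuron and glia genes were higher for 14 of 18 (median log2 0.43, 6 called higher and 1 lower). Macrophage genes were higher for 12 of 13 (median log2 0.28, 3 called). The exocrine pancreas list was higher for 19 of 23 members tested (median log2 1.71, none called). The part of these lists in the Nr4a difference was not tested, and the labels do not say what else set M and set MT differ in.

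Libraries that were high in one member tended to be high in the others. After the mean of each set and group was subtracted, Nr4a2 and Nr4a3 had a Pearson r of 0.734 and a Spearman rho of 0.699 over 39 libraries (permutation p = 1e-05 for both, the smallest that 100000 permutations give; adjusted p = 0.0001). The r was 0.804 in set M (permutation p = 0.00033) and 0.664 in set MT (permutation p = 0.00037). It stayed at 0.735 when the 2 libraries farthest from the median of Nr4a2 were left out.

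Nr4a1 and Nr4a3 had an r of 0.624 (permutation p = 4e-05, adjusted p = 0.00024) and a rho of 0.588 (permutation p = 0.00014, adjusted p = 0.000525) over the 39 libraries. The r was 0.688 in set M and 0.595 in set MT, and 0.532 without the 2 farthest libraries. Nr4a1 and Nr4a2 had an r of 0.616 (permutation p = 8e-05, adjusted p = 0.0004) and a rho of 0.487 (permutation p = 0.00206, adjusted p = 0.00343). This pair held within set M (r = 0.793, rho = 0.804, permutation p = 0.00063 for rho). In set MT r was 0.506 but rho 0.188 (permutation p = 0.378), and r was 0.146 without the 2 farthest libraries, so in that set the relation rests on them. Without the 6 libraries high in pancreas genes the r of the 3 pairs was 0.593 for Nr4a1 with Nr4a2, 0.626 for Nr4a1 with Nr4a3 and 0.717 for Nr4a2 with Nr4a3.

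The 2 libraries above 20 CPM of Nr4a1 were also near the top for the other members. Saline-water 3 had the highest Nr4a2 (17.2 CPM) and Nr4a3 (9.13 CPM) of all 39, and Saline-antibiotic 5 had the third highest of each (14.3 and 7.25 CPM). Both were also high for Egr1, an immediate early zinc finger factor, at 37.7 and 62.0 CPM, against a median of 16.1 CPM over the 39 libraries. Over 27 measured immediate early genes other than the members, their mean log2 CPM was 4.98 and 4.94, the 2 highest of the 39 libraries. Single genes of that list varied in Saline-water 3 and Saline-antibiotic 5: Jun ranked 1 and 17 of 39, Fos 2 and 9, and Dusp6 28 and 18. The clock gene Per1, which cyclic AMP also induces, was not high in these 2 libraries (a gene singled out after its values were seen), at 58.1 and 42.2 CPM against a median of 62.4 CPM.

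**Figure D4:**
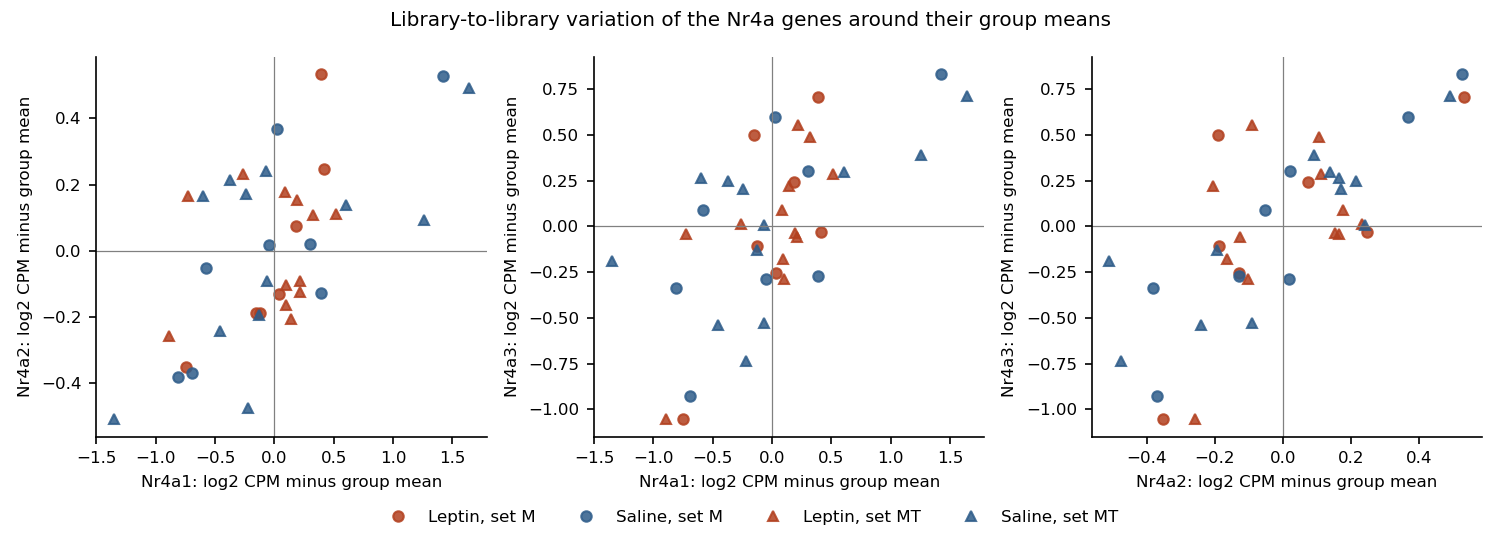
Log2 CPM minus the mean of the library's set and group, for each pair of members in 39 libraries; circles are set M, triangles set MT, and colour marks leptin or saline. Points run from lower left to upper right in all 3 panels, with a Pearson r of 0.616, 0.624 and 0.734.

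By the same centred values, the genes most like Nr4a1 among 12535 genes were Ptgs2 (Spearman's rho 0.731), which encodes the inducible cyclooxygenase, Egr1 (0.690), the myosin gene Myo5c (0.670), Sik1 (0.658), a kinase gene that CREB induces, the transporter gene Abca5 (0.650) and Ccn1 (0.647), which encodes a matricellular protein of the immediate early class. Fos, the immediate early subunit of AP-1, had a rho of 0.0816 with Nr4a1 and ranked 4167. Fosb had 0.449 and ranked 280, and Jun had −0.085; these 3 were set beside Nr4a1 after their values were seen. Genes most like Nr4a2 included Onecut3 (0.753), Eya2 (0.750), Adam9 (0.724), Rab27a (0.704) and Fam114a1 (0.699), and Nr4a3 was at rank 7. Onecut3 and Eya2 encode developmental transcription regulators. Nr4a3 was most like Mecom (0.842), a zinc finger transcription factor gene, followed by Mia3 (0.772), Pik3c2g (0.759), St8sia6 (0.736), Rasal1 (0.733) and Casc4 (0.732). Nr4a2 ranked 17 for Nr4a3, and Nr4a1 ranked 156. These likenesses are over 39 libraries, in each of which all genes share 1 depth and tissue makeup, and they are given as a description. Without the 6 libraries high in pancreas genes, rho with Nr4a1 was 0.658 for Ptgs2, 0.717 for Egr1 and 0.563 for Myo5c. It was 0.617 for Sik1, 0.480 for Abca5 and 0.602 for Ccn1, so the order of these genes rests partly on those libraries. For Onecut3, Eya2, Adam9, Rab27a and Fam114a1 rho with Nr4a2 was then 0.688 to 0.755. For Mecom to Casc4 rho with Nr4a3 was 0.745 to 0.783.

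Of the other immediate early genes, a list of 28 with 27 measured, 4 were lower and 1 higher with leptin over the 39 libraries, where 0.795% of all genes were called lower and 3.01% in either direction (19 of 27 negative, median log2 −0.14, against −0.01 for all genes, 45.2% of which were positive). Those lower were Fosb, an AP-1 subunit (log2 −1.08, SE 0.28, edgeR adjusted p = 0.023), Ccn1 (−0.72, SE 0.11, adjusted p = 0.000162), Egr1 (−0.70, SE 0.19, adjusted p = 0.0301) and Dusp5 (−0.36, SE 0.08, adjusted p = 0.00637), a phosphatase gene of the ERK pathway. Dusp6, another ERK phosphatase gene, was higher (0.38, SE 0.09, adjusted p = 0.0138). Egr1 had 9.74, 13.4 and 26.3 CPM in leptin libraries and 9.95, 22.4 and 62.0 CPM in saline libraries, and Fosb had 0.723, 1.29 and 4.79 CPM in leptin libraries and 0.599, 3.43 and 7.68 CPM in saline libraries. The leptin and saline ranges of both overlapped. Fos did not pass (log2 0.25, SE 0.09, edgeR adjusted p = 0.131), with 125, 182 and 243 CPM in leptin libraries against 72.7, 157 and 228 CPM in saline libraries. Without the libraries high in pancreas genes Fosb, Ccn1 and Dusp5 were called, and Egr1 (edgeR adjusted p = 0.149) and Dusp6 (0.0738) were not.

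**Figure D5:**
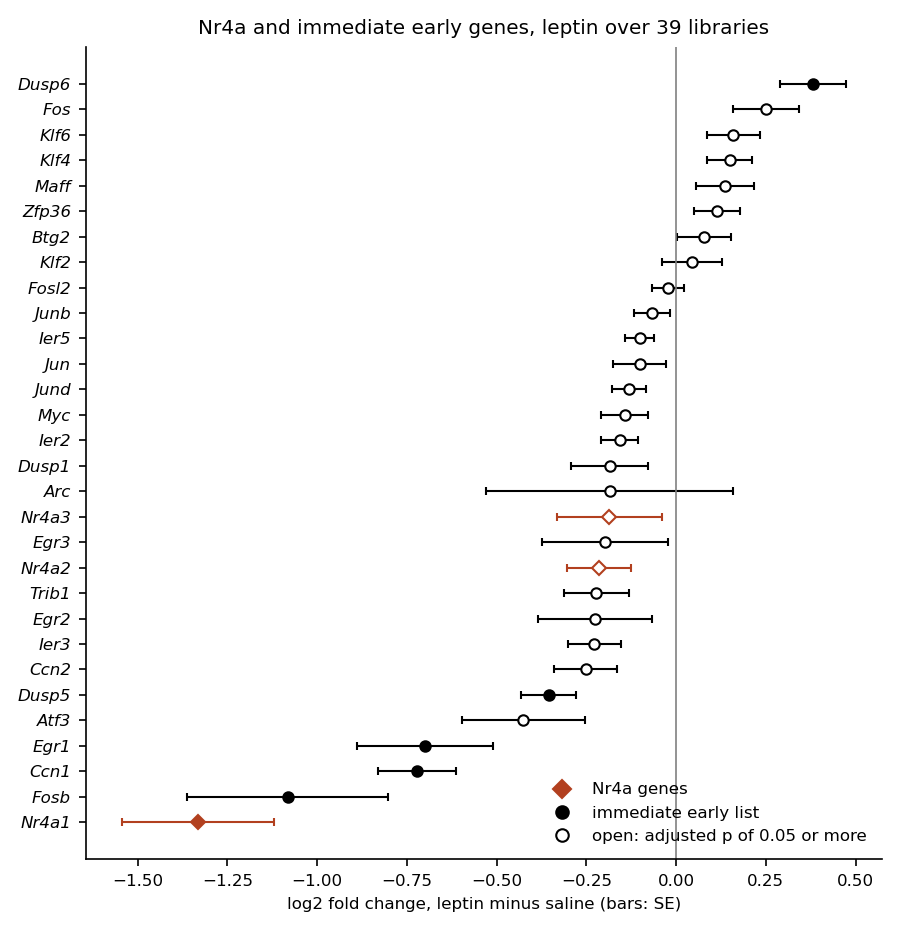
Log2 fold change of leptin minus saline over 39 libraries (bars are standard errors) for the 3 members (diamonds) and 27 other immediate early genes (circles); filled symbols have an edgeR adjusted p under 0.05. Nr4a1 is lowest at −1.33, Nr4a2 and Nr4a3 lie at −0.21 and −0.19 among genes that did not pass, and Dusp6 is highest at 0.38.

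On water alone, with 0.312% of all genes called, Ccn1 was the immediate early gene called (log2 −0.74, SE 0.14, edgeR adjusted p = 0.0202), and on antibiotic none was, with Ccn1 at −0.68 (SE 0.18, edgeR adjusted p = 0.068). Of 18 cyclic AMP and CREB target genes, which share 6 names with the immediate early list, 2 were higher and 2 lower over the 39 libraries (median log2 −0.07), against 3.01% of all genes called in either direction. Those higher were Per1 (0.61, SE 0.10, edgeR adjusted p = 0.000351) and Ppargc1a, a coactivator gene of mitochondrial metabolism (0.26, adjusted p = 0.0242, and 0.078 without the libraries high in pancreas genes). Fosb and Nfil3, a bZIP repressor gene (−0.51, adjusted p = 0.023), were lower. Per1 had 60.4, 74.7 and 104 CPM in leptin libraries and 25.1, 47.3 and 86.3 CPM in saline libraries, and it was called on antibiotic too (0.80, SE 0.18, edgeR adjusted p = 0.0397). When the libraries high in pancreas genes were left out, Per1 was called over all groups (0.58, edgeR adjusted p = 0.00441) and not on antibiotic (0.60, SE 0.23, edgeR adjusted p = 0.514).

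Of 21 genes for CREB, its CRTC coactivators, MEF2 and SRF factors, class IIa deacetylases and signalling enzymes such as protein kinase A, CaM kinase II and calcineurin, 1 was called over the 39 libraries, Sik3, a salt-inducible kinase gene (log2 0.14, SE 0.04, edgeR adjusted p = 0.0202, and 0.0636 without the libraries high in pancreas genes), and none was called on water or on antibiotic. This share is near the 3.01% of all genes called, and the median of the list was 0.01. Of 16 measured genes for partners and coregulators of NR4A proteins, such as Rxra, the retinoid X receptor that dimerises with NR4A1 and NR4A2, none was called (median 0.02; Rxra 0.10, edgeR adjusted p = 0.1).

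Among 23 measured genes reported as NR4A targets in other tissues, 1 was called over the 39 libraries (median 0.02), a share near the 3.01% of all genes. It was Slc2a2, the glucose transporter GLUT2 gene, with a log2 fold change of 0.28 (SE 0.08, edgeR adjusted p = 0.0326, and 0.112 without the libraries high in pancreas genes). On water, where 0.312% of all genes were called, it was G6pc, whose product releases free glucose in gluconeogenesis, that was lower (−0.53, SE 0.12, edgeR adjusted p = 0.0444). G6pc had 10.3, 14.6 and 17.5 CPM in Leptin-water libraries of set M and 15.5, 18.3 and 24.8 CPM in Saline-water libraries of set M, and over the 39 libraries it did not pass (−0.32, SE 0.14, edgeR adjusted p = 0.209).

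Of 17 measured other orphan nuclear receptors, 2 were called over the 39 libraries, against 3.01% of all genes, and both were higher: Hnf4g, an enterocyte HNF4 factor (log2 0.33, SE 0.06, edgeR adjusted p = 0.00182), and Nr1d2, the clock repressor REV-ERB beta (0.26, SE 0.06, edgeR adjusted p = 0.00716). Hnf4g also passed on water (0.34, edgeR adjusted p = 0.0487, and 0.0541 without the libraries high in pancreas genes), with 428, 579 and 810 CPM in Leptin-water libraries and 356, 435 and 663 CPM in Saline-water libraries, whose ranges overlapped. On antibiotic Esrra, an estrogen-related receptor of oxidative metabolism, was the gene of the list called (0.34, SE 0.07, edgeR adjusted p = 0.0282), with 205 to 250 CPM in Leptin-antibiotic libraries and 171 to 188 CPM in Saline-antibiotic libraries, which did not overlap (0.514% of all genes called). It was not called with the libraries high in pancreas genes left out (0.30, SE 0.10, edgeR adjusted p = 0.363). Across all 17 the median log2 fold change over the 39 libraries was 0.01.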

How the data were processed

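Duodenal RNA from 39 libraries (150 ng of total RNA each, ribosomal depletion, stranded, paired end, per the labels' protocols) was analysed from the raw counts per gene that the authors deposited. Per the submitters' processing notes these counts were made with FastQC, HISAT2 and featureCounts on mm10, with edgeR 3.42.0 also named. For the annotation, strand setting and filter rule, the choice is not given in the sources used here. With 16358 genes in the deposited table, genes removed before deposit cannot be seen.

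Groups came from the labels, and sets from the start of the library names. Counts were tested with edgeR 4.0.16 (R 4.3.3; TMM scaling, filterByExpr, quasi-likelihood F test, Benjamini-Hochberg adjustment over all genes tested, threshold 0.05). The water comparison had set as a term, set MT comparisons used its 24 libraries in 1 fit, and the fit of 39 libraries had set and antibiotic as terms. Intervals are 95%, from the standard error. Log2 CPM used a prior count of 2. Lists are described by counts and medians. Alternatives were DESeq2 1.42.0, limma 3.58.1 voom with quality weights, RLE scaling, no filter, a pancreas covariate, left-out libraries and a replicate block. Refits of called list genes without the libraries high in pancreas genes were added after seeing the data. On simulated counts the test recovered 98.0% of 100 genes changed by a log2 of 1 on water and 91.0% on antibiotic, and 88.0% and 57.0% of 100 changed by a log2 of 0.5. The changed genes were drawn at random from genes above a floor of mean count, and there were 6 false calls on water and 9 on antibiotic. Apart from the planted changes, each simulated gene had the same mean level in all libraries. The simulated counts thus held no difference between sets and no libraries set apart by pancreas genes, as the real ones do. In saline libraries the members varied more than most genes of like level, so these shares need not hold for them.

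Named genes were the members, list genes past the threshold or with the 3 lowest p, and per member the 6 genes of highest Spearman correlation (mean log2 CPM 1 or more), of which 1 is not reported here. Members and lists were chosen with earlier results of these data known. No 2 libraries of a group held identical counts (109 pairs compared).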

Additional observations from a re-analysis of the deposited data

Results flagged for a closer look

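Of 18 combinations of a member with a group and set, 3 held a library that stood apart from the rest by Dixon's 95% criterion. All 3 were for Nr4a1. The criterion was applied to CPM and not to log2 CPM. By chance it flags about 1 group in 20 where values are normally distributed, which CPM need not be. Leptin-water 10 had 2.15 CPM, below the next lowest Leptin-water library of set MT at 3.82 CPM, and it was high in pancreas genes. Saline-water 3 had 31.1 CPM, above the next Saline-water library of set M at 15.2 CPM. Saline-water 14 had 13.7 CPM, above the next Saline-water library of set MT at 5.45 CPM. Neither of these saline libraries was high in pancreas genes. What sets the 3 libraries apart was not tested.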

How the results depend on the processing

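Nr4a1 over 39 libraries was lower with leptin and called under all 7 alternatives (log2 −1.33 to −1.04). On water 7 of 10 kept its call, and it was lost in set M alone (log2 −1.51, adjusted p = 0.0735), in set MT alone (−0.78, adjusted p = 0.681) and with the replicate block (−1.06, adjusted p = 0.0856). Nr4a2 on water turned sign in set MT alone (0.036). On antibiotic the edgeR call of Nr4a1 was lost with no filter on low counts (−1.64, adjusted p = 0.0506) and with only the 12 libraries of the 2 groups (−1.64, adjusted p = 0.0902). It was lost with the set MT libraries high in pancreas genes left out (−0.65) and with the pancreas list as a covariate (−1.23). The replicate block lost it too (−1.41, adjusted p = 0.156). An alternative chosen after seeing the data, without the libraries above 20 CPM of Nr4a1, also lost it (−1.10). Of those libraries this comparison holds Saline-antibiotic 5 alone. The call was lost with limma voom too (−1.44, adjusted p = 0.0772). DESeq2 gave no adjusted p for the 3 members there, and its log2 fold change for Nr4a1 was −1.62 (SE 0.40). For Nr4a1, the interaction of leptin with antibiotic turned sign when the set MT libraries high in pancreas genes were left out (0.020). Between sets, Nr4a1 lost its call with voom (−0.85) and Nr4a3 gained one with DESeq2 (−0.66).

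Leaving out 1 library gave −1.82 to −1.10 for Nr4a1 on antibiotic, and −0.75 to −0.51 for Nr4a3 between sets, where 5 of 27 fits passed. Replicate numbers are not known to mark pairs. On water, number 8 joins a Leptin-water library of set MT to a Saline-water library of set M. Same-numbered libraries had correlations of −0.197 to 0.206 on water (3 of 13 pairs over 0.1, 1 best with its own number). On antibiotic the correlations were −0.212 to 0.503 (1 of 6 over 0.1, 1 best with its own). The block on these numbers, which may be arbitrary, left 0 genes called by edgeR on water (1677 at an unadjusted p under 0.05, and no other tool was run with the block). It left 13 on antibiotic.

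DESeq2 called 173 genes on water, 443 on antibiotic, 183 and 780 for antibiotic in saline and in leptin mice and 75 for the difference between sets. Voom called 133 on water, 81 and 1394 for antibiotic in saline and in leptin mice and 0 between sets (1651 unadjusted). Without the libraries high in pancreas genes 33 were called on water, 0 on antibiotic, 17 and 205 for antibiotic in saline and in leptin mice, 3 between sets and 295 over 39 libraries. The pancreas covariate gave 51 on antibiotic, 15 for antibiotic in saline mice and 149 between sets. With only the 12 libraries of antibiotic in saline mice 0 were called (1616 unadjusted). Without the libraries above 20 CPM the counts of called genes were 23 on water, 18 on antibiotic, 20 for antibiotic in saline mice and 305 over 39 libraries. With 1 library left out, 10 (Leptin-water 2 left out) to 125 (without Saline-water 10) were called on water and 9 (without Leptin-antibiotic 3) to 183 (without Saline-water 13) on antibiotic. The causes were not tested. At 71 to 488 reads, Nr4a3 was the least precisely counted member.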
